A study of Mus musculus with 6 samples.

Results

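Many Mas-related G protein-coupled receptors are surface receptors of small-diameter sensory neurons, though not all members of the family are. This report follows 7 genes of the family, *Mrgprd*, *Mrgpra3*, *Mrgprb4*, *Mrgprb5*, *Mrgprx1*, *Mrgpre* and *Mrgprf*, in mouse lumbar dorsal root ganglia (DRGs). They were taken by symbol from the annotation of Affymetrix Mouse Gene 2.0 ST arrays and are 7 of 22180 genes with a probe set of their own. The cKO group, labelled HDAC4 Nav1.8 cKO, holds 3 arrays of mice in which Cre, driven by the gene of the nociceptor sodium channel Nav1.8, deletes the floxed histone deacetylase gene *Hdac4*. The wild-type group holds 3 arrays labelled HDAC4 fl/fl, which carry the same floxed alleles without Cre. All DRGs came from uninjured adult C57Bl/6 mice, aged 2 mo according to the methods. The labels do not say whether an array stands for its own animal, so that p values cover only the variation among these samples. The paper's legend for the microarray gives a group size without stating whether it counts animals. The variation may be technical among the wild-type arrays and in part among the cKO arrays. Sex-linked genes, given below, differ between the cKO arrays, which are thus not all repeats of the same sample. Cre acts only in neurons that express Nav1.8, and glia, vessels and other neurons of the ganglion keep the intact gene.

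Most of these receptors mark the nonpeptidergic nociceptors, which mature under the transcription factor RUNX1 and end in the skin. *Mrgprd* encodes the receptor for beta-alanine, *Mrgpra3* the receptor through which chloroquine evokes itch, and *Mrgprx1*, whose older mouse name is *Mrgprc11*, a receptor for an itch-evoking peptide cut from proenkephalin. In mice *Mrgprb4* marks unmyelinated afferents that respond to stroking of the hairy skin. The itch receptors couple to G proteins of the Gq class, phospholipase C and, for *Mrgpra3* and *Mrgprx1*, the channel TRPA1.

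Of the 22 family genes with a probe set of their own, 20 lie on chromosome 7 and 2 (*Mas1* and *Mrgprh*) on chromosome 17 in the RefSeq annotation. A run of 16 measured *Mrgpra*, *Mrgprb* and *Mrgprx* genes holds *Mrgpra3*, *Mrgprx1*, *Mrgprb5* and *Mrgprb4* in that order. Over this stretch 44 gene models are annotated, among them 1 protein-coding gene from outside the family, and order here refers to the measured genes. *Mrgprg*, *Mrgpre*, *Mrgprf* and *Mrgprd* follow outside the run, in that order. The windows of 250 bases upstream of *Mrgprb4* and *Mrgprb5*, which follow each other in the run, are shown because they are the most alike pair among the 5 members with a window in RefSeq, with 206 of 250 bases identical (82.4%), against 56.9% to 63.5% of aligned bases for the other 9 pairs. Capitals mark the 44 bases that differ. For both genes the first codon after the window is atg, the start codon. These windows thus lie directly before the coding sequence and may not hold the promoter.

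*Mrgprb4*, chr7:48199179-48199428, GRCm38.p6, minus strand, 5′ to 3′: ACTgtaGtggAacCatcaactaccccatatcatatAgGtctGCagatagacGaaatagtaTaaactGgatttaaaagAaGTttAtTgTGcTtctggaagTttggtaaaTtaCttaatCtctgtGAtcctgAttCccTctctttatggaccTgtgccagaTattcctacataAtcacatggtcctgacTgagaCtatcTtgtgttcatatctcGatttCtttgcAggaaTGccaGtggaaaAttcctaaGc
*Mrgprb5*, chr7:48168986-48169235, GRCm38.p6, minus strand, 5′ to 3′: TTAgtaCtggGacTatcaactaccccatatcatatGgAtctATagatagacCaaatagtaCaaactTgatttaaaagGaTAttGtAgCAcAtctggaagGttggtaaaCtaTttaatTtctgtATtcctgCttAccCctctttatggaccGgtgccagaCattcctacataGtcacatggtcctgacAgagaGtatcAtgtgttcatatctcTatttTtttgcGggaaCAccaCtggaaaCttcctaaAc

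The RUNX core motif TGTGGT, searched on both strands, was in 0 of the 5 members' windows (*Mrgprd*, *Mrgprb4*, *Mrgprb5*, *Mrgprx1* and *Mrgpre*) and in 14.05% of all 32851 windows of that length, which says only that these letters are not in these windows. The windows of *Mrgpra2a* and *Mrgpra2b* are identical over all 250 bases. Whether array probes of one family gene also bind RNA of another was not tested, since the probe letters were not analysed here, and the values of family genes are uncertain in this respect.

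The values analysed here are robust multichip average (RMA) signals on the log2 scale, where a difference of 1 is a doubling, and levels of different genes cannot be compared on an array. Per-array medians were 6.43 to 6.50 and correlations between arrays 0.987 to 0.994. The number of arrays limits the precision, and the signal over background is unknown. The floxed gene *Hdac4* read 9.17, 9.14 and 9.21 in cKO DRGs and 9.22, 9.49 and 9.19 in wild-type DRGs, with a log2 difference of -0.13 in cKO against wild-type DRGs, with a standard error (SE) of 0.10 and a limma adjusted p = 0.776. Where this probe set lies relative to the floxed exons was not analysed here, so it is no check of the deletion. The paper itself reported less *Hdac4* mRNA in cKO DRGs by quantitative PCR, also at the floxed exons, and less HDAC4 protein. *Xist*, transcribed from the inactive X chromosome, was 11.74, 6.67 and 5.95 in the cKO arrays and 11.60 to 11.71 in the wild-type arrays, and the Y-linked *Uty* was 4.59, 9.26 and 9.01 in the cKO arrays and 4.31 to 4.59 in the wild-type arrays. Replicates 2 and 3 of the cKO group thus differ from the other 4 arrays in sex-linked genes, although the methods call the groups sex matched. In what follows, wild-type replicate 2 also stands apart, in some genes of the run.

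No Mas-related receptor passed the test between genotypes. Over all 41345 probe sets 0 had an adjusted p under 0.05 from limma (0%), and 0 of the 7 receptors did. At an unadjusted p under 0.05 there were 0 of 7 receptors, with 7.45% of all probe sets and 5.48% of all genes as the background (2.67% of genes higher and 2.8% lower in cKO DRGs). The groups were without overlap for 0 of 7, against 13.7% of all genes (6.3% higher and 7.4% lower in cKO DRGs). Their median log2 fold change was -0.04 (cKO minus wild-type), with 2 positive and 5 negative, and that of all genes was 0.00.

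**Figure D1:**
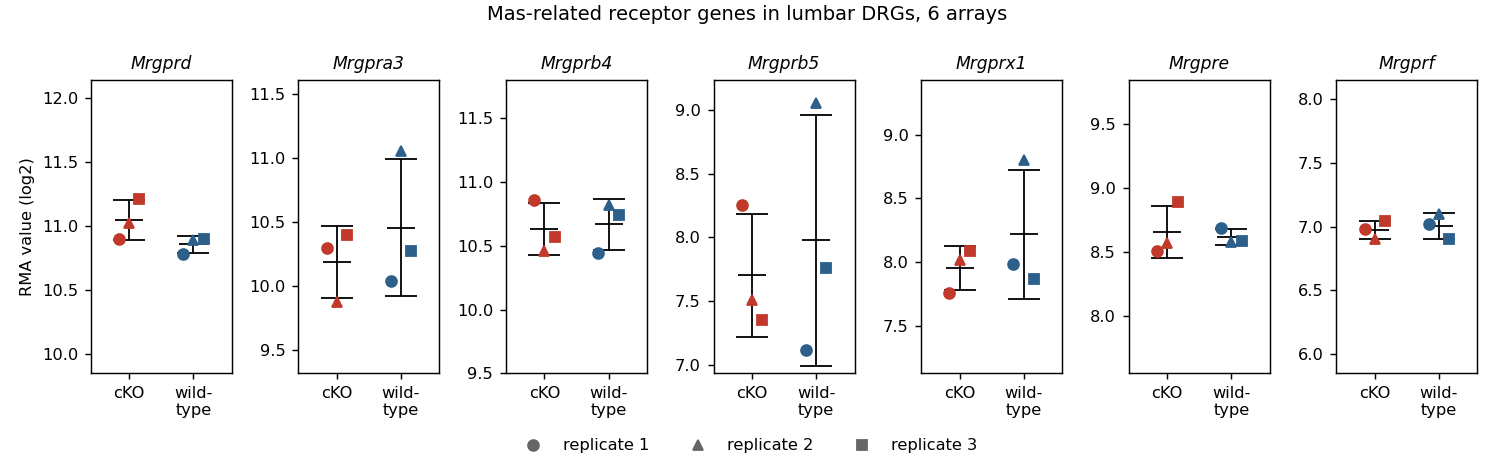
RMA values (log2) of the 7 receptor genes in the cKO arrays (left, red) and wild-type arrays (right, blue); symbols give the replicate number, and black bars the mean ± SD of 3 arrays. All panels span the same log2 range, and wild-type replicate 2 is the highest of the 6 arrays for *Mrgpra3* (11.06), *Mrgprb5* (9.05) and *Mrgprx1* (8.80).

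*Mrgprd*, the beta-alanine receptor gene, had the smallest p of the 7. It read 10.90, 11.02 and 11.21 in cKO DRGs and 10.78, 10.89 and 10.90 in wild-type DRGs. All 3 cKO arrays were above the wild-type mean, and the groups met at 10.90. The means were 11.04 ± 0.16 in cKO DRGs and 10.86 ± 0.07 in wild-type DRGs (SD, n = 3 each), which gives a log2 difference of 0.19 (SE 0.10, 95% confidence interval -0.05 to 0.42, limma adjusted p = 0.704, exact permutation p = 0.2). As a ratio this is 1.14 times the wild-type level, with an interval of 0.97 to 1.34. The exact permutation test, two-sided over all 20 arrangements of 3 arrays against 3, has 0.1 as its smallest p.

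The 2 highest *Mrgprd* values came from the cKO arrays with high *Uty*. Without cKO replicate 1, the cKO array with high *Xist*, the log2 fold change was 0.26 (limma unadjusted p = 0.0357 and adjusted p = 0.415), and the cKO arrays left were all above the wild-type arrays. In that setting 9.27% of all genes had an unadjusted p under 0.05 from limma and 31.8% were without overlap. Genotype cannot be told apart from sex there. A sex term in the model leaves cKO replicate 1 as the only cKO array to set against the wild-type arrays, and *Mrgprd* then had a log2 fold change of 0.04 (SE 0.12, limma adjusted p = 0.957).

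*Mrgpra3*, the chloroquine receptor gene, read 10.30, 9.87 and 10.40 in cKO DRGs and 10.04, 11.06 and 10.27 in wild-type DRGs. Wild-type replicate 2 was above all other arrays, and the other 2 wild-type arrays lay inside the range of the cKO arrays. The log2 fold change was -0.27 (SE 0.28, 95% confidence interval -0.94 to 0.41, limma adjusted p = 0.828). Without wild-type replicate 2 it was 0.035 (SE 0.18, limma adjusted p = 0.986).

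*Mrgprx1*, the receptor gene for the proenkephalin-derived peptide, read 7.76, 8.02 and 8.09 in cKO DRGs and 7.99, 8.80 and 7.87 in wild-type DRGs. Again the groups overlapped and 1 wild-type array stood above the other 5. The log2 fold change of -0.26 (SE 0.25, 95% confidence interval -0.86 to 0.34, limma adjusted p = 0.811) became 0.027 without wild-type replicate 2 (SE 0.13, limma adjusted p = 0.983).

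*Mrgprb5*, its neighbor in the run, varied most among the 7. It read 8.25, 7.51 and 7.35 in cKO DRGs and 7.12, 9.05 and 7.76 in wild-type DRGs. The wild-type group held both the lowest and the highest array. The log2 fold change was -0.27 (SE 0.50, limma adjusted p = 0.906), and its 95% confidence interval, -1.47 to 0.92, was the only one of the 7 to reach beyond 1 in either direction. Without wild-type replicate 2 the log2 fold change was 0.26 (SE 0.33, limma adjusted p = 0.924).

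*Mrgprb4*, the gene of the stroking-sensitive afferents, read 10.86, 10.46 and 10.57 in cKO DRGs and 10.44, 10.82 and 10.74 in wild-type DRGs. Neither group was set apart, and the log2 fold change was -0.04 (SE 0.14, 95% confidence interval -0.38 to 0.31, limma adjusted p = 0.964). Its sign changed with several settings, to 0.04 without wild-type replicate 2 and 0.19 with sex as a covariate.

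*Mrgpre*, whose product was reported to form complexes with MRGPRD in cultured cells, read 8.51, 8.57 and 8.89 in cKO DRGs and 8.69, 8.58 and 8.59 in wild-type DRGs. One cKO array was the highest and another the lowest, and the log2 fold change was 0.04 (SE 0.11, 95% confidence interval -0.24 to 0.31, limma adjusted p = 0.952). The orphan receptor gene *Mrgprf* read 6.98, 6.90 and 7.04 in cKO DRGs and 7.02, 7.10 and 6.90 in wild-type DRGs. These 6 values spanned 0.20, the narrowest range of the 7 receptors, with a log2 fold change of -0.03 (SE 0.08, 95% confidence interval -0.23 to 0.17, limma adjusted p = 0.938). The 95% interval lay within 0.5 of 0 for 4 of the 7 receptors and within 1 for 6, against 87.3% and 99.2% of all genes.

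The spread behind these intervals differed widely between receptors. Within the wild-type group, *Mrgprb5* spanned 1.93, *Mrgpra3* 1.02 and *Mrgprx1* 0.93 on the log2 scale, wider than 99.9%, 99.5% and 99.4% of all genes. The median wild-type range over all genes was 0.15. *Mrgprd*, at 0.12, and *Mrgpre*, at 0.11, were below that median. In the cKO group *Mrgprb5* and *Mrgpra3* again spanned more than most genes (0.90, wider than 99.1%, and 0.53, wider than 93.7%). The range of *Mrgprx1* there was 0.33 (wider than 75.6%).

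Wild-type replicate 2 carried most of the wild-type spread of *Mrgprb5*, *Mrgpra3* and *Mrgprx1*. Its value was set against the mean of the other 2 wild-type arrays, and *Mrgprb5* had the largest such excess of all 22180 genes, 1.61 on the log2 scale. Of the 10 genes with the largest excess in that array, 5 belonged to the family, namely *Mrgprb5*, *Mrgpra2b* (1.07), *Mrgpra2a* (0.92), *Mrgpra3* (0.91) and *Mrgprx1* (0.87). The same ranking in each of the other 5 arrays, against its own group, held 0 family genes among the 10 highest and 0 among the 10 lowest. *Mrgprb5* came close in wild-type replicate 1, at -1.29 against the mean of the other 2 wild-type arrays, which includes replicate 2. The comparison was chosen after the values were seen and is a description of 1 array, with no test. Values of the family by array, in chromosomal order, are plotted as a heat map.

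**Figure D2:**
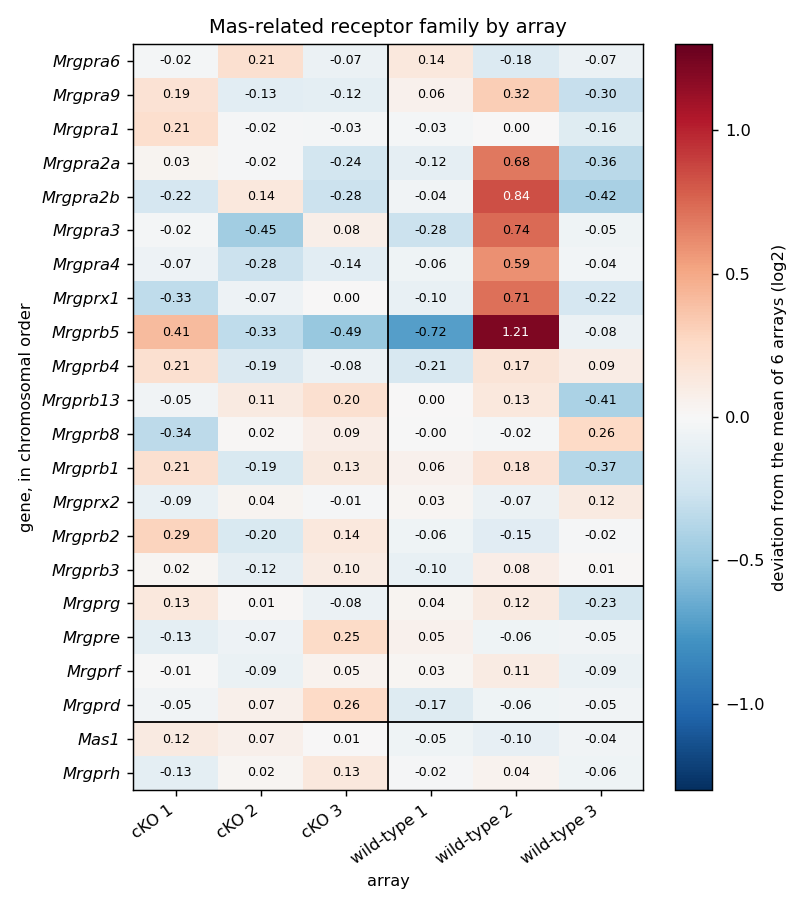
Deviation of each family gene from its mean over 6 arrays (log2, color scale), with cKO arrays left and wild-type arrays right; rows follow chromosomal order, and black lines separate the run of 16 genes, the 4 other genes of chromosome 7 and the 2 of chromosome 17. In wild-type replicate 2 the stretch from *Mrgpra2a* to *Mrgprb5* is high, whereas *Mrgprd* and *Mrgpre* are not.

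In the run, 6 of 16 genes exceeded the other wild-type arrays by over 0.5 in replicate 2, against 0.401% of all genes. These 6 are consecutive among the 16 measured genes, from *Mrgpra2a* to *Mrgprb5*. Of the measured genes next to these 6, *Mrgprb4* had an excess of 0.23 and *Mrgpra1* of 0.095, and the lowest value in the run was -0.215. Outside the run, the excess was 0.05 for *Mrgprd*, -0.06 for *Mrgpre*, 0.14 for *Mrgprf* and, added after its value was seen, 0.21 for *Mrgprg*. Replicate 2 was the highest of the 6 arrays for 4 of the 7 receptors (*Mrgpra3*, *Mrgprb5*, *Mrgprx1* and *Mrgprf*) and for 8 of the 22 family genes, and for 15.6% of all genes. Its correlations with the other arrays, 0.990 to 0.994, lay within the range over all arrays. The other 5 of the 10 genes with the largest excess in that array, also named after their values were seen, were *Dnase1l3* (1.17), *Cxcl9* (1.16), *Mir5098* (1.01), *Cxcl10* (0.94) and *Retnla* (0.94), and their part in the result was not tested.

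Without wild-type replicate 2, all 7 receptors had a positive log2 fold change, as did 19 of the 22 family genes. That array was chosen for its high values in these genes, so leaving it out raises their fold changes by construction, and the counts are no evidence of a direction. The median over the 7 receptors was 0.04 and over the 22 family genes 0.07, with 0 at an adjusted p under 0.05 and 0 at an unadjusted p under 0.05 from limma among the 7. With all 6 arrays 11 of the 22 were positive. Fold changes with and without that array are plotted together.

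**Figure D3:**
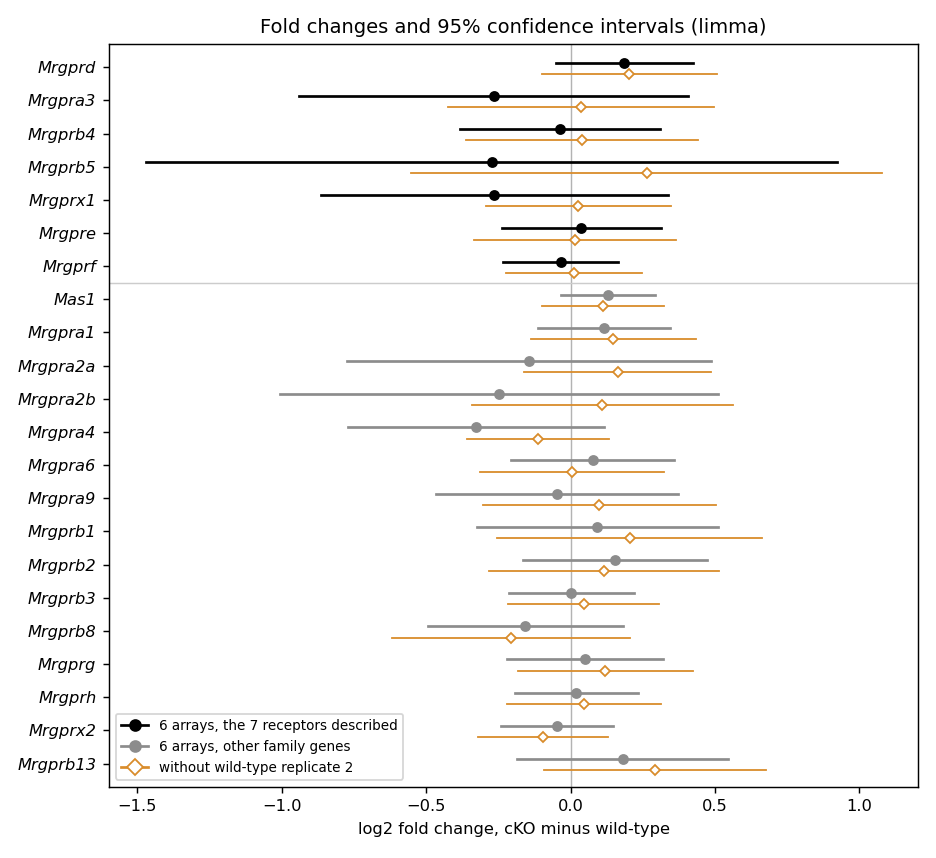
Log2 fold change, cKO minus wild-type, with 95% confidence intervals from limma, for the 7 receptors (black) and the other 15 family genes (gray) over 6 arrays, and without wild-type replicate 2 (orange diamonds). Every interval includes 0 in both settings, and those of *Mrgpra3*, *Mrgprb5* and *Mrgprx1* move right when that array is left out.

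The other family genes were 13 listed genes and 2 more, *Mrgprx2* and *Mrgprb13*, added after their values were seen. Of the 13, 0 had an adjusted p under 0.05 from limma and 0 had an unadjusted p under 0.05. Their median log2 fold change was 0.02, with 8 positive and 5 negative. *Mas1*, the founding receptor gene of the family, read 4.83, 4.78 and 4.72 in cKO DRGs and 4.66, 4.61 and 4.67 in wild-type DRGs, without overlap, at a log2 fold change of 0.13 (SE 0.07, limma adjusted p = 0.703). *Mrgpra4* read 5.30, 5.09 and 5.23 in cKO DRGs and 5.31, 5.96 and 5.33 in wild-type DRGs, a gap of 0.01 between the groups, at a log2 fold change of -0.33 (SE 0.18, limma adjusted p = 0.711). *Mrgpra1* had a log2 fold change of 0.12 (SE 0.10). Both genes without overlap lay below the median signal of all probe sets (6.47), and 13.7% of all genes were without overlap.

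*Mrgprb2*, the receptor gene of mast cells in mice, also lay below that median, at 4.86, 4.37 and 4.71 in cKO DRGs and 4.51, 4.42 and 4.55 in wild-type DRGs. Of 8 mast cell markers 0 passed the adjustment and 1 had an unadjusted p under 0.05 from limma, against 5.48% of all genes. The mast cell protease gene *Cpa3* averaged 8.09 ± 0.08 in cKO DRGs and 8.57 ± 0.06 in wild-type DRGs (SD, n = 3 each), without overlap, as for 13.7% of all genes. The difference was -0.48 (SE 0.08, limma unadjusted p = 0.000596 and adjusted p = 0.503). The protease gene *Mcpt4* was at -0.25 and the histamine-forming enzyme gene *Hdc* at 0.31. The median of the 8 was -0.06.

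Removing the group means leaves the variation among arrays of one genotype. Over the 6 arrays these deviations correlated positively for all 6 pairs of *Mrgpra3*, *Mrgprb4*, *Mrgprb5* and *Mrgprx1*, with Pearson's r from 0.17 to 0.83. Without wild-type replicate 2 only 3 of these 6 pairs were positive, from -0.97 to 0.94. The value of 0.94 belonged to *Mrgprb4* and *Mrgprb5*, which had r = 0.83 over all 6 arrays. Their upstream windows are printed above. Whether these correlations go with the windows, or with array probes that bind RNA of both genes, was not tested. *Mrgprd* had r = 0.74 with *Mrgpre*, 0.34 with *Mrgpra3* and -0.11 with *Mrgprb5*. All such values share the same 6 arrays and their normalization.

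The genes whose deviations were most like each receptor were sought among 13436 genes above the median signal. For *Mrgpra3* they were *Cd55*, a complement regulator gene and marker of nonpeptidergic nociceptors (r = 0.9995), *Nmt1* and *Actn1*. For *Mrgprd* they were *Ncaph2*, *Chrnb2* and *Spast*, for *Mrgprx1* *Vcp*, *Rad54l2* and *Pwp1*, for *Mrgprb4* *Mical3*, *Ubap1l* and *Alox5*, and for *Mrgprb5* *Ppil6*, *Ubtd2* and *Kin*. The lowest of these 15 values of r was 0.9885, for *Mrgprx1* and *Pwp1*. With 6 arrays such values are common. For *Mrgpra3* 57 genes had r above 0.95, and for *Mrgprd* 175. *Cd55* read 11.11, 10.98 and 11.13 in cKO DRGs and 11.07, 11.36 and 11.14 in wild-type DRGs, with wild-type replicate 2 the highest there too.

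Markers of the neurons that carry *Mrgprd* were examined next, since fewer cells of a type and less RNA per cell cannot be told apart in whole ganglia. Of 11 measured markers 0 passed the adjustment and 0 had an unadjusted p under 0.05, with a median log2 fold change of 0.03. Of the 11, 7 were positive and 4 negative, among them *Cd55* at -0.12, and the 3 with the smallest p were all positive. *A3galt2* was at 0.15 (SE 0.07), the GDNF family receptor gene *Ret* at 0.12 (SE 0.06) and the synaptic vesicle gene *Synpr* at 0.15 (SE 0.09). For 7 of these 11 wild-type replicate 2 was the highest array. The mean deviation of the 11 from their means over 6 arrays was 0.02, -0.04 and 0.05 in the cKO arrays and -0.11, 0.12 and -0.04 in the wild-type arrays, so that replicate 2 was high here too, at a smaller size than for the 7 receptors (0.01, -0.16 and 0.01 in the cKO arrays and -0.20, 0.40 and -0.06 in the wild-type arrays).

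**Figure D4:**
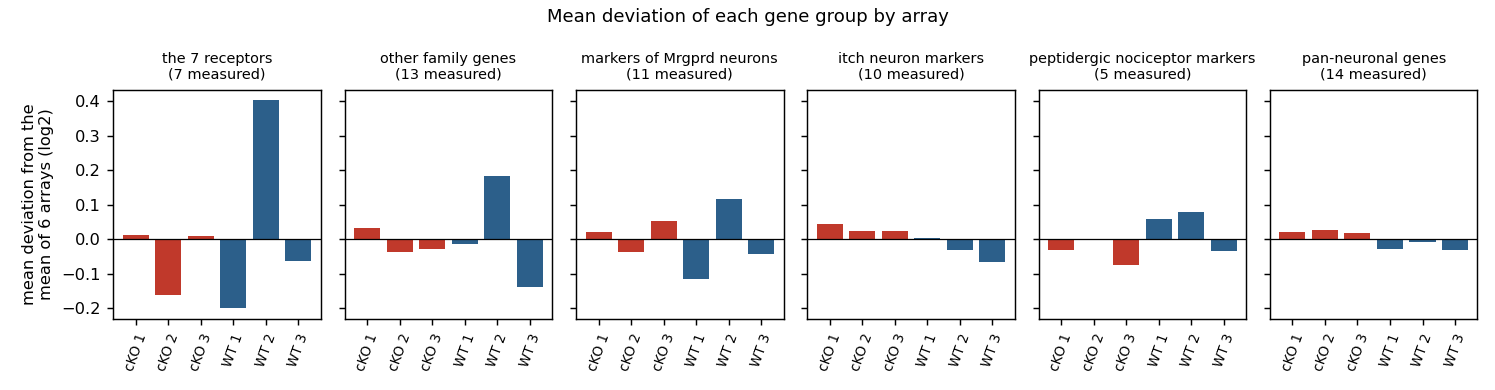
Mean deviation of 6 gene groups from their mean over 6 arrays (log2), for cKO arrays (red, left) and wild-type arrays (blue, right; WT). Wild-type replicate 2 stands at 0.40 for the 7 receptors, 0.18 for the other family genes and 0.12 for markers of *Mrgprd* neurons, and at -0.01 for pan-neuronal genes.

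Other neuron markers differed among themselves in that array. The mean deviation in wild-type replicate 2 was 0.08 over 5 peptidergic markers, -0.03 over 10 further itch neuron markers and -0.01 over 14 pan-neuronal genes. The itch neuron markers had a median log2 fold change of 0.05, with 0 past the adjustment. Of the 10, 5 were positive and 5 negative, and the 3 with the smallest p were all positive. At an unadjusted p under 0.05 from limma there was 1 of the 10, against 5.48% of all genes. *Npy2r* had 0.19 (SE 0.08, limma unadjusted p = 0.0398), the itch peptide gene *Nppb* 0.29 (SE 0.15) and the cytokine receptor gene *Osmr* 0.12 (SE 0.06). The peptidergic markers had a median of -0.08, with *Tac1* at -0.21 and *Trpv1* at -0.08. For 7 large-diameter or low-threshold neuron markers the median was -0.01. For the pan-neuronal genes it was 0.04, with 9 positive and 5 negative. Of these 14 genes 1 had an unadjusted p under 0.05, against 5.48% of all genes, namely *Rbfox3* at 0.20 (SE 0.07, limma unadjusted p = 0.0328). *Scn10a*, the gene of Nav1.8, had 0.03 (SE 0.10, limma adjusted p = 0.949).

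A list of 13 measured regulators of sensory neuron differentiation, not limited to nonpeptidergic neurons, shared *Ret* and *Gfra2* with the markers of *Mrgprd* neurons. Of the 13, 0 passed the adjustment and 2 had an unadjusted p under 0.05 from limma, against 5.48% of all genes. *Runx1* read 9.57, 9.57 and 9.56 in cKO DRGs and 9.53, 9.63 and 9.58 in wild-type DRGs. The homeobox gene *Tlx3* read 8.46, 8.75 and 8.82 in cKO DRGs and 8.35, 8.36 and 8.31 in wild-type DRGs, without overlap, as for 13.7% of all genes. Its log2 fold change was 0.34 (SE 0.11, limma unadjusted p = 0.0177 and adjusted p = 0.64). *Prrxl1* was at 0.21 (SE 0.08, limma unadjusted p = 0.0453) and *Prdm12* at 0.14. The median of the 13 was 0.05. Of the 13, 5 were higher and 1 lower in cKO DRGs without overlap, against 6.3% and 7.4% of all genes. The list as a whole was not tested.

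Downstream of the receptors, 17 genes of G proteins, phospholipases, arrestins and channels were measured, and 0 passed the adjustment. Their median was -0.04 on the log2 scale. At an unadjusted p under 0.05 there were 2, against 5.48% of all genes. Both were negative, namely the channel gene *Trpa1* at -0.25 (SE 0.09, limma adjusted p = 0.652) and the phospholipase C gene *Plcb4* at -0.19 (SE 0.08). *Trpa1* read 10.39, 10.29 and 10.28 in cKO DRGs and 10.61, 10.69 and 10.41 in wild-type DRGs, without overlap, as for 13.7% of all genes. Of the 17 genes, 5 were lower and 2 higher in cKO DRGs without overlap, against 7.4% and 6.3% of all genes. The list as a whole was not tested. *Gnai2*, of an inhibitory G protein, was at 0.17. Of 7 genes for peptide precursors and a protease with products that act on Mas-related receptors, 0 passed the adjustment, with *Tac1* at -0.21, *Pomc* at -0.10 and *Npff* at 0.11.

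Markers of other cells were compared in the same way. For skeletal muscle, 12 of 12 markers were positive, with a median log2 difference of 1.22. Of the 12, 5 had an unadjusted p under 0.05 (*Myh2* 1.21, *Mb* 0.87, *Myh1* 1.70), against 5.48% of all genes. The mean deviation of the 12 was 0.44, 1.09 and 0.30 in the cKO arrays and -0.88, -1.40 and 0.45 in the wild-type arrays, lowest in wild-type replicate 2. Medians were 0.11 over 12 smooth muscle and pericyte markers (*Des* 0.81), -0.13 over 11 fibroblast and meningeal markers (*Pdgfra* -0.26), 0.02 over 7 satellite glia markers (*Cdh19* -0.33), 0.00 over 4 Schwann cell markers and 0.01 over 8 macrophage markers (*Ptprc* -0.40), each with 0 past the adjustment. Each gene in brackets had the smallest p of its list and lay far from the median of that list. *Des* read 7.73, 8.20 and 7.77 in cKO DRGs and 7.03, 6.58 and 7.66 in wild-type DRGs. It was lowest in wild-type replicate 2, as was the mean of the skeletal muscle markers. The part of all these markers in the receptors' values was not tested.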

How the data were processed

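Total RNA of lumbar DRGs was hybridized to 1 array per sample. The authors deposited log2 values, to 2 decimals, that the oligo package computed by RMA (background correction, quantile normalization, summary per probe set) for 41345 probe sets; tool versions and the genome build are not given in the sources used here. The probe annotation gave exactly 1 gene symbol for 23521 probe sets. A gene was represented by the single-symbol probe set with the highest mean over 6 arrays, and each of the 7 receptors has 1 such probe set. Genotype was the sole factor of a linear model fitted to every probe set with lmFit and eBayes (R 4.3.3, limma 3.58.1). Its two-sided p values were adjusted over the whole table by the Benjamini-Hochberg method, and the fit was tested on simulated data. The members, gene lists, tests and alternatives were chosen with earlier results of these data known. Lists share some genes and are described by counts and medians, with no set test. Named genes were the 7 receptors, *Hdac4*, *Scn10a*, *Xist* and *Uty*, at most 3 genes per list, those of smallest p, and the 3 genes most like each of 5 receptors; *Mrgprb2*, *Mrgpra2a*, *Mrgpra2b*, *Runx1* and the genes marked so in the text were added after their values were seen. Alternatives were other sets of probe sets, eBayes with trend and robust, array weights, cyclic loess, an equal pan-neuronal mean, sex read from *Xist* and *Uty*, the replicate number as a block and leaving out each array. Upstream sequences are from RefSeq (GRCm38.p6) and were aligned globally; 5 of the 7 members had a window, and the others are not analysed here.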

Additional observations from a re-analysis of the deposited data

How the results depend on the processing

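Under every alternative run, 0 of the 7 receptors had an adjusted p under 0.05 from limma, and the smallest adjusted p in any setting was 0.415 (*Mrgprd* without cKO replicate 1). Leaving out each array in turn gave 0 to 1 receptors at an unadjusted p under 0.05 from limma, against 3.35% to 9.27% of all genes. The same settings gave 0 to 1 receptors without overlap, which fewer arrays make easier (21.1% to 31.8% of all genes). The receptor without overlap was *Mrgprd* without cKO replicate 1 or wild-type replicate 3 and *Mrgpre* without cKO replicate 3. With cyclic loess over all 6 arrays 1 receptor, *Mrgprd*, was without overlap. The share of all genes was not computed for cyclic loess, and with the values as deposited it was 13.7%. Changes to the set of probe sets, to eBayes or to the block leave the receptors' fold changes as they are. Only the other settings bear on their sign, and there 13 fold changes did not keep it. Of these, that of *Mrgprb4* without wild-type replicate 3 became 0, and the rest reversed. Leaving out arrays, the log2 fold change ranged from 0.10 to 0.26 for *Mrgprd*, -0.475 to 0.035 for *Mrgpra3*, -0.15 to 0.048 for *Mrgprb4*, -0.70 to 0.26 for *Mrgprb5*, -0.44 to 0.027 for *Mrgprx1*, -0.08 to 0.11 for *Mrgpre* and -0.087 to 0.013 for *Mrgprf*; the upper ends for *Mrgpra3*, *Mrgprb5* and *Mrgprx1* are without wild-type replicate 2. With sex as a covariate *Mrgprb4* had 0.19, *Mrgprb5* 0.27 and *Mrgpre* -0.11, and with an equal pan-neuronal mean *Mrgpre* had -0.0081; the cause was not tested.

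Same-numbered arrays did not deviate together (r = -0.04, -0.08 and -0.08), so the numbers were not taken as pairs. With the replicate block 0 receptors passed at either threshold, and the smallest p was 0.0949 (*Mrgprd*, adjusted p = 0.804 from limma). No detection calls were used, so whether receptor genes at low signal were above background is unknown.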
